A study of Mus musculus with 6 samples.

Results

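The DNA replication genes described here are 46 mouse genes whose products license replication origins, unwind and copy DNA, join the new strands, supply deoxynucleotides and place histones on the copied DNA. They were chosen by name and function, and they are 46 of the 20660 genes that could be matched to a probe on the arrays. A total of 51 probes measured them. The arrays were Agilent SurePrint G3 arrays for mouse gene expression, read in the Cy3 channel alone, on which the brightness of a spot reports the amount of Cy3-labelled cRNA bound to a gene's oligonucleotide. Biological replicates, each on an array of its own, numbered 3 from the E18.5 fetal gland and 3 from the adult gland of 8-12 week females, all from female C57Bl6J mice. Both sorts removed CD31, CD45 and Ter119 positive cells. The fetal gate then took EpCAM++CD49f+ cells and the adult basal gate EpCAM+CD49f+ cells that lacked BP-1, and RNA was taken from the cells freshly after sorting. The gates enrich for cells with regenerative activity and do not purify them, the adult glands were digested overnight and the fetal glands briefly, and the labels do not say how many animals made up a replicate. The question was how the transcripts of the regenerative fetal cells differ from those of the adult basal subset, the adult cells closest to them.

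A cell copies its genome once in each cycle. In G1 the origin recognition complex, Cdc6 and Cdt1 load the ring-shaped MCM helicase onto origins. In S phase the kinase Cdc7-Dbf4 and cyclin-dependent kinases switch the helicase on by adding Cdc45 and the GINS complex, after which primase, the replicative polymerases and the sliding clamp copy both strands. Many of these genes are transcribed under the control of E2F factors as cells enter S phase, so quiescent tissues carry little of their RNA and dividing tissues much more. The late fetal mammary rudiment is a growing epithelium, whereas the adult virgin gland is largely resting. How far the sorted cells were dividing was not measured.

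All 46 genes had a higher mean signal in the fetal than in the adult basal cells, and the difference passed the threshold for 32 of them. To pass, a probe needed a difference of at least 2-fold and, in limma with Holm's adjustment, a p no higher than 0.05. Of all 20448 probes tested, 11.1% passed in either direction, 5.92% with higher fetal and 5.18% with higher adult basal signal. A log2 difference above 0, of whatever size, was found for 48.2% of all tested probes. The median log2 difference was 2.61 over the 46 genes, or 6.11-fold, against -0.03 over all probes tested, and single genes ranged from 0.10 to 6.57. The lowest fetal array lay above the highest adult basal array for 45 of the 46 genes, a separation that 34.1% of all tested probes had with higher fetal signal and 69.0% in either direction. Tyms was the exception. With the less strict Benjamini-Hochberg adjustment, 41 genes passed at 2-fold, where 16.0% of all tested probes passed with higher fetal signal and 30.0% in either direction. The filter on low signal kept every one of the 46 genes, but Orc1, Cdc6 and Pole were kept through their fetal signal alone. Of the 43 genes that passed the filter in both populations, 29 passed the threshold. Because the RNA came from whole sorted populations, a smaller number of replicating cells and less of a transcript in each cell cannot be told apart.

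**Figure D1:**
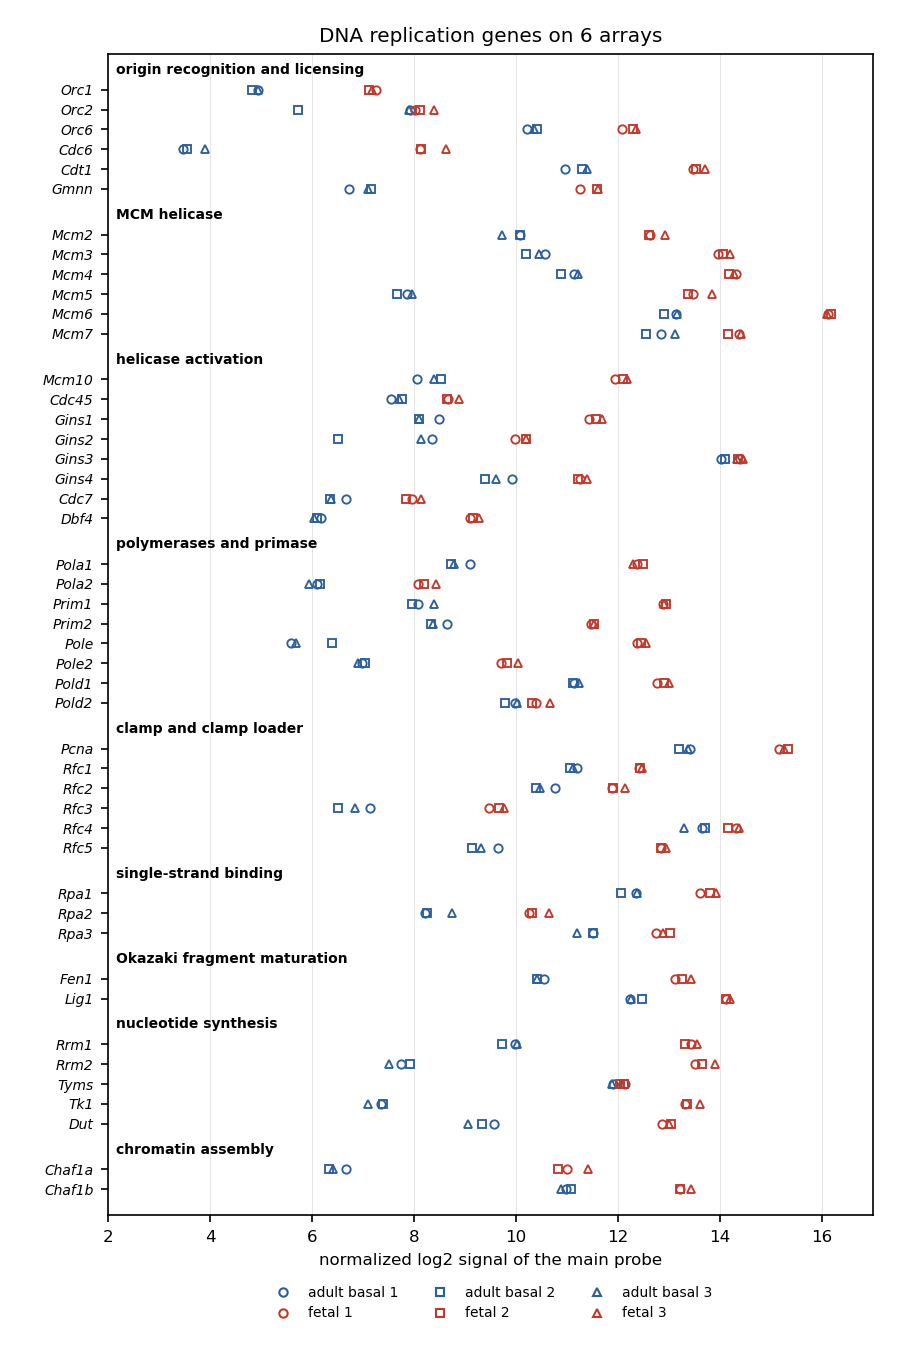
Normalized log2 signal of the main probe (horizontal axis) of each of the 46 DNA replication genes (rows, grouped by function) on the 3 adult basal arrays (blue) and the 3 fetal arrays (red), with 1 symbol per array. The red and blue symbols are apart for 45 genes and intermingle for Tyms, and adult basal replicate 2 stands apart from the other adult arrays for Orc2 and Gins2.

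Because many of these genes are known E2F targets, their promoters were searched for the letters TTTCCCGC and TTTGGCGC, both forms of the E2F binding sequence, on either strand. RefSeq promoter windows of 300 bases (250 before and 50 after the start of the transcript, build GRCm38.p6) were at hand for 38 of the 46 genes. Rfc2, Pole, Gins4, Gmnn, Gins2, Prim2, Mcm4 and Gins1 had none. Among the 45 windows of the 38 genes, 11 windows of 11 genes, or 24.4%, held at least 1 of these letter strings, as did 1.56% of all 32851 mouse promoter windows. TTTCCCGC was in 13.3% of the windows of these genes and in 1.07% of all windows, and TTTGGCGC in 13.3% and 0.514%. The 13 matches in these 11 genes are printed because they are the sites the search found. The windows of the other genes held none. Of the 13, 7 lie upstream of the start and 6 at or after it. Each is written 5′ to 3′ on the strand of the gene, with the matched letters in capitals. GCGGGAAA and GCGCCAAA are the same strings read from the other strand.
Cdc6 (chr11:98908003-98908030, + strand): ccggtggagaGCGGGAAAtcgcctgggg
Cdt1 (chr8:122568037-122568064, + strand): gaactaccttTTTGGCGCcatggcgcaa
Mcm3, first match (chr1:20820276-20820303, - strand): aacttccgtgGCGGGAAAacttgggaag
Mcm3, next match (chr1:20820263-20820284, - strand): cttgggaagtTTTGGCGCcaag
Mcm5 (chr8:75109350-75109377, + strand): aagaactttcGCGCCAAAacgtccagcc
Mcm6, first match (chr1:128359798-128359825, - strand): ggcgtatgctTTTGGCGCgaaaagtgcg
Mcm6, next match (chr1:128359735-128359762, - strand): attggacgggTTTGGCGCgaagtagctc
Mcm7 (chr5:138172031-138172058, - strand): atttcgaaccGCGGGAAAcagggtgtcc
Gins3 (chr8:95633508-95633535, + strand): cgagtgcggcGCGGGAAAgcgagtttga
Pola1 (chrX:93632276-93632303, - strand): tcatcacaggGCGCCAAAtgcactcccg
Pole2 (chr12:69228163-69228190, - strand): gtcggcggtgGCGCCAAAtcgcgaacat
Pold1 (chr7:44548766-44548786, - strand): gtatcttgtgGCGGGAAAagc
Rfc3 (chr5:151651191-151651218, - strand): tttcgcgctcGCGGGAAAactctactgt

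The promoter of Mcm6 held 2 matches upstream of its start and is printed whole over the 250 bases before it (chr1:128359706-128359955, - strand), with both TTTGGCGC strings and 2 copies of ATTGG, the reverse complement of the CCAAT box, in capitals.
Mcm6: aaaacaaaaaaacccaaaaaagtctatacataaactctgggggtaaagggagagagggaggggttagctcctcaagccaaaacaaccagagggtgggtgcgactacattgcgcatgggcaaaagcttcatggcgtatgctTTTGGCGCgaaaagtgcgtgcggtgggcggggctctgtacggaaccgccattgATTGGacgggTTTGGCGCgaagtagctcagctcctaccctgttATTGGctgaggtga
The CCAAT box was in 55.6% of the windows of the 38 genes and in 37.4% of all windows. TTTGAA, a core of the cell cycle homology region, was in 17.8% and 17.9%. These strings are short, a match shows letters and not binding, and genes with a match included both Mcm5, whose fetal signal was 53.1-fold that of the adult basal cells, and Gins3, whose signal differed by less than 2-fold. Among the 38 genes, the median log2 difference was 2.87 with either E2F-type string and 2.18 without. It was 3.29 and 2.08 for TTTGGCGC and 2.27 and 2.33 for TTTCCCGC, and these differences were not tested.

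Of the 6 origin recognition and licensing genes, 5 passed the threshold with higher fetal signal, with a median log2 difference of 2.32. Among the 5, Orc1 and Cdc6 were kept by the signal filter through their fetal signal alone. The values that follow are normalized log2 signals, given in the order of replicates 1 to 3. Cdc6, the ATPase that helps to load the helicase, measured 8.12, 8.14 and 8.63 in the fetal arrays and 3.47, 3.55 and 3.91 in the adult basal arrays. None of the 3 adult values was well above background, so the fetal signal was at least 20.4-fold higher (limma, Holm-adjusted p = 0.00057). This bound rests on the signals as processed, and with normexp background correction the log2 difference was 2.31 and still passed. Gmnn encodes geminin, which binds Cdt1 and prevents a further round of licensing. Its fetal arrays read 11.25, 11.58 and 11.61 and its adult basal arrays 6.73, 7.16 and 7.10, a log2 difference of 4.48 ± 0.16 (SE, n = 3 and 3), or 22.4-fold (limma, Holm-adjusted p = 0.00026). Each population was tight for this gene, and the gap between them was many times the spread within either.

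Cdt1, which brings the helicase to origins, measured 13.48, 13.52 and 13.71 in fetal arrays and 10.97, 11.29 and 11.40 in adult basal arrays, a log2 difference of 2.35 ± 0.14 (limma, Holm-adjusted p = 0.010). Thus the loader and its inhibitor were both higher in the fetal cells. Orc1, the ATPase subunit of the origin recognition complex, read 7.25, 7.12 and 7.17 in fetal against 4.94, 4.82 and 4.95 in adult basal arrays and differed by 2.28 ± 0.10 (limma, Holm-adjusted p = 0.00098). Orc6, the smallest subunit, differed by 1.91 ± 0.12 (limma, Holm-adjusted p = 0.011). Orc2, another subunit, was the member with the smallest difference in the group and the only one not to pass. Its fetal arrays read 8.02, 8.11 and 8.40 and its adult basal arrays 7.93, 5.73 and 7.91. Adult basal replicate 2 stood far below the other adult arrays, which lay close to the fetal ones, and without that array the log2 difference fell from 0.99 to 0.26.

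The 6 subunits of the MCM helicase had a median log2 difference of 3.12, and 5 of them passed the threshold. Mcm5 differed most. It measured 13.47, 13.38 and 13.84 in the fetal arrays and 7.86, 7.67 and 7.96 in the adult basal arrays, a log2 difference of 5.73 ± 0.15, or 53.1-fold (limma, Holm-adjusted p = 3.2e-05). Mcm3 read 13.97, 14.05 and 14.20 in fetal against 10.56, 10.20 and 10.45 in adult basal arrays and was 12.7-fold higher (limma, Holm-adjusted p = 0.00025). Mcm4, part of the catalytic core with Mcm6 and Mcm7, was 9.11-fold higher, Mcm6 8.31-fold and Mcm2 6.73-fold, with Holm-adjusted p (limma) of 0.00038, 0.00025 and 0.0043. The 6 subunits stand in the ring in equal numbers, yet their differences were unequal, from 1.48 for Mcm7 to 5.73 for Mcm5. Each subunit was measured by 1 probe, and the probes of a gene can disagree in size, as those of Rfc4 did (0.74 and 3.51). Mcm7 measured 14.37, 14.16 and 14.42 in fetal arrays and 12.85, 12.54 and 13.11 in adult basal arrays. The arrays did not overlap, but the difference missed the threshold (95% interval 1.1 to 1.87, limma, Holm-adjusted p = 0.54). With Benjamini-Hochberg adjustment all 6 subunits passed.

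Of the 8 genes for helicase activation, 3 passed the threshold (Mcm10, Gins1 and Dbf4), and the median log2 difference was 2.06. With Benjamini-Hochberg adjustment 7 of the 8 passed. Mcm10, which helps to start unwinding, measured 11.94, 12.09 and 12.18 in fetal arrays and 8.06, 8.53 and 8.39 in adult basal arrays, a log2 difference of 3.74 ± 0.15 (limma, Holm-adjusted p = 0.00054). Dbf4, the regulatory subunit of the Cdc7 kinase, read 9.10, 9.16 and 9.27 in fetal against 6.17, 6.10 and 6.04 in adult basal arrays and differed by 3.07 ± 0.10 (limma, Holm-adjusted p = 0.00014). The kinase subunit itself, Cdc7, had a log2 difference of 1.51 (95% interval 1.21 to 1.82) and did not pass. Cdc45, which joins the MCM ring in the active helicase, had a log2 difference of 1.06 (95% interval 0.79 to 1.33) and did not pass either.

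The GINS complex has 4 subunits in equal numbers, and with 1 probe each they gave 4 different pictures. Gins1 measured 11.44, 11.57 and 11.68 in fetal and 8.49, 8.09 and 8.09 in adult basal arrays and was 10.1-fold higher in fetal cells (limma, Holm-adjusted p = 0.00096). Gins2 read 9.99, 10.20 and 10.20 in fetal arrays and 8.35, 6.50 and 8.13 in adult basal arrays, so that adult basal replicate 2 again lay far below the others. Its log2 difference of 2.47 ± 0.45 did not pass. Without that array the difference was 1.89, and Gins2 then passed. Gins4 had a log2 difference of 1.65 (95% interval 1.29 to 2.00, limma, Holm-adjusted p = 0.18). Gins3 read 14.39, 14.35 and 14.46 in fetal arrays and 14.02, 14.09 and 14.34 in adult basal arrays, and its difference of 0.25 had a 95% interval from -0.03 to 0.52, below a 2-fold change.

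**Figure D2:**
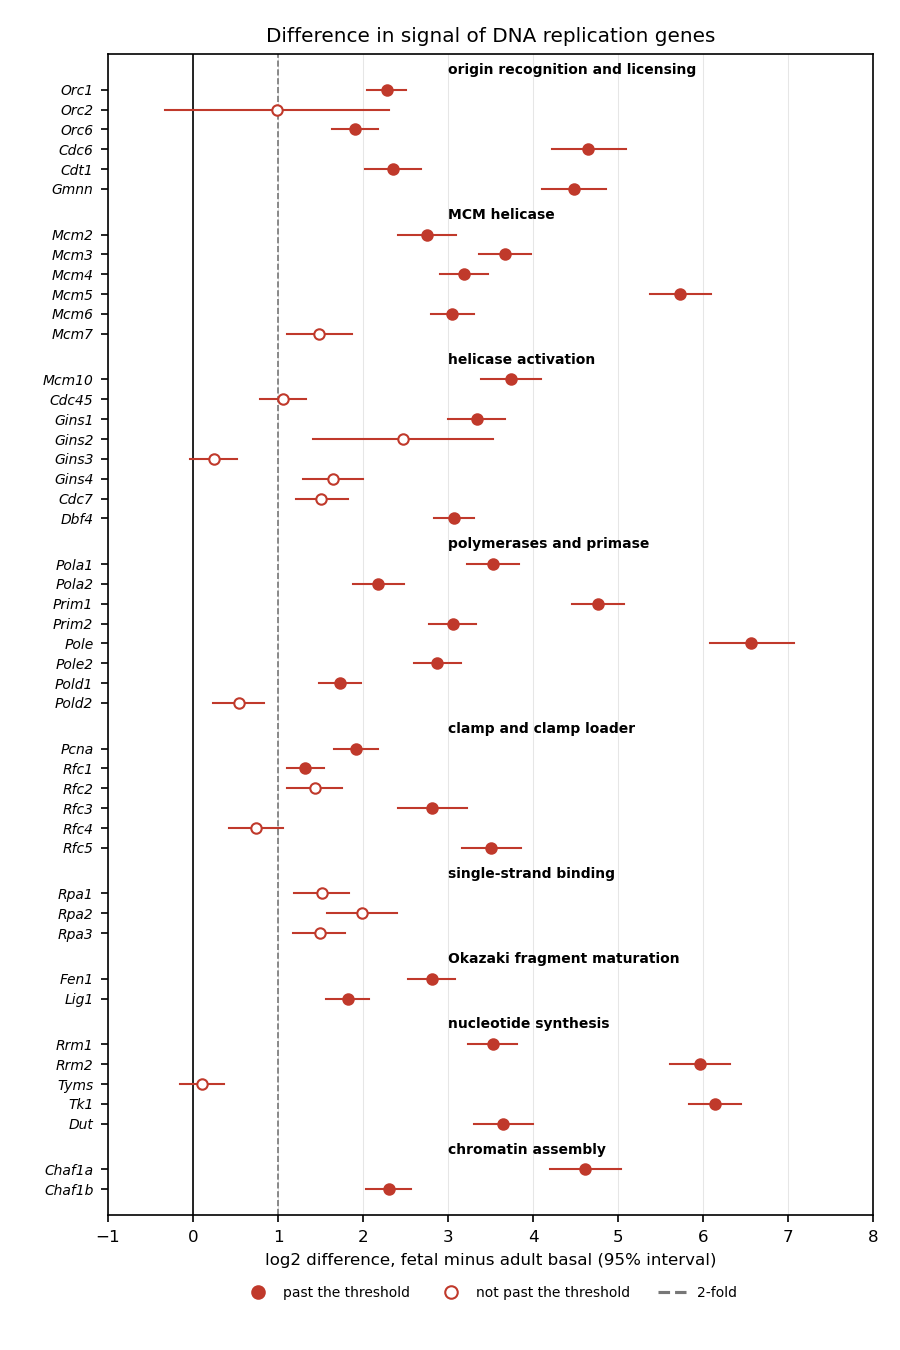
Log2 difference in normalized signal, fetal minus adult basal (horizontal axis), with its 95% interval from limma, for the main probe of each of the 46 genes grouped by function. Filled circles passed the threshold (Holm-adjusted p at most 0.05 and at least 2-fold, the dashed line), open circles did not. The points lie right of 0 for all genes, from Tyms at 0.10 to Pole at 6.57, and the widest intervals are those of Orc2 and Gins2.

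Polymerase and primase genes passed in 7 of 8 cases, with a median log2 difference of 2.97. Among the 7, Pole was kept by the signal filter through its fetal signal alone. The difference of Pole, the catalytic subunit of the leading-strand polymerase epsilon, was the largest of the 46 genes by the main probes, though not with normexp background correction (5.53, against 5.66 for Tk1) or with the probes of a gene averaged (4.88). Its main probe read 12.38, 12.45 and 12.55 in fetal arrays and 5.59, 6.39 and 5.68 in adult basal arrays, a log2 difference of 6.57 ± 0.21, or 95.3-fold (limma, Holm-adjusted p = 0.00013). A dimmer probe of Pole was below the signal filter and was not tested. None of its adult values was well above background, and the fetal signal there was at least 2.23-fold higher. Pole2, the accessory subunit of the same enzyme, measured 9.70, 9.83 and 10.03 in fetal and 6.99, 7.03 and 6.90 in adult basal arrays and was 7.33-fold higher (limma, Holm-adjusted p = 0.00073).

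Primase lays the RNA primers from which polymerase alpha extends. Prim1, its catalytic subunit, read 12.89, 12.94 and 12.91 in fetal arrays and 8.08, 7.97 and 8.40 in adult basal arrays, a 27.1-fold difference (limma, Holm-adjusted p = 4.1e-05). Prim2, the large primase subunit, was 8.34-fold higher (limma, Holm-adjusted p = 0.00044). Pola1, the catalytic subunit of polymerase alpha, measured 12.38, 12.49 and 12.30 in fetal and 9.10, 8.72 and 8.78 in adult basal arrays and was 11.5-fold higher, and its partner Pola2 was 4.53-fold higher (limma, Holm-adjusted p = 0.00038 and 0.0086). All 4 genes of the primase complex thus passed. Polymerase delta, which copies the lagging strand, had smaller differences. Pold1, the catalytic subunit, was 3.31-fold higher (fetal 12.77, 12.91 and 13.00, adult basal 11.14, 11.11 and 11.24, limma, Holm-adjusted p = 0.012). Pold2, its accessory subunit, read 10.40, 10.32 and 10.66 against 9.98, 9.78 and 10.01 and did not pass, with a log2 difference of 0.54 (95% interval 0.23 to 0.84).

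The sliding clamp and its loader had a median log2 difference of 1.68, and 4 of the 6 genes passed. With slide as a block only Rfc5 passed, and Pcna, Rfc3 and Rfc1 missed the threshold (limma, Holm-adjusted p = 0.056, 0.058 and 0.2). Pcna, the clamp that holds polymerases on DNA, read 15.15, 15.34 and 15.26 in fetal arrays and 13.42, 13.19 and 13.38 in adult basal arrays, a log2 difference of 1.92 ± 0.11, or 3.79-fold (limma, Holm-adjusted p = 0.0079). Replication factor C is the 5-subunit loader that opens the clamp. Among its subunits Rfc5 differed most by the main probes, with 12.84, 12.84 and 12.95 in fetal against 9.65, 9.13 and 9.31 in adult basal arrays, an 11.4-fold difference (limma, Holm-adjusted p = 0.00083). Rfc3 was 7.04-fold higher (fetal 9.48, 9.67 and 9.77, adult basal 7.13, 6.50 and 6.85, limma, Holm-adjusted p = 0.012). Rfc1, the large subunit, was 2.49-fold higher and only just passed (limma, Holm-adjusted p = 0.032). This call was lost whichever array was left out. Rfc2 had a log2 difference of 1.43 (95% interval 1.11 to 1.75) and Rfc4 of 0.74 (0.42 to 1.06), and neither passed. With Benjamini-Hochberg adjustment Rfc2 passed and the main probe of Rfc4 did not.

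The 3 subunits of replication protein A, which coats single-stranded DNA, did not pass the threshold, although the arrays of the populations did not overlap for any of them and all 3 passed with Benjamini-Hochberg adjustment. Rpa1 measured 13.61, 13.81 and 13.92 in fetal and 12.36, 12.05 and 12.37 in adult basal arrays, a log2 difference of 1.52 (95% interval 1.19 to 1.84). Rpa2 had the largest difference of the 3, at 1.99 (1.58 to 2.40), and Rpa3 the smallest, at 1.49 (1.18 to 1.79). Both genes for Okazaki fragment maturation passed. Fen1, the nuclease that trims the flaps between fragments, read 13.11, 13.26 and 13.43 in fetal against 10.54, 10.42 and 10.42 in adult basal arrays and was 7.0-fold higher (limma, Holm-adjusted p = 0.00077). Lig1, the ligase that seals them, was 3.54-fold higher (fetal 14.11, 14.11 and 14.20, adult basal 12.24, 12.47 and 12.26, limma, Holm-adjusted p = 0.0085).

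The 5 nucleotide synthesis genes held both some of the widest differences and the narrowest. Their median log2 difference was 3.65, and 4 passed. Tk1, the thymidine kinase of the salvage pathway, measured 13.32, 13.35 and 13.60 in fetal arrays and 7.36, 7.40 and 7.09 in adult basal arrays, a log2 difference of 6.14 ± 0.13, or 70.4-fold (limma, Holm-adjusted p = 7.3e-06). Rrm2, the small subunit of ribonucleotide reductase whose amount limits the enzyme, read 13.51, 13.64 and 13.90 in fetal against 7.74, 7.92 and 7.51 in adult basal arrays and was 62.4-fold higher (limma, Holm-adjusted p = 2.5e-05). Its partner Rrm1, a longer-lived subunit, was 11.5-fold higher (fetal 13.44, 13.32 and 13.55, adult basal 9.99, 9.73 and 10.01, limma, Holm-adjusted p = 0.00022). The log2 differences of the subunits were far apart. No test compared them, but the 95% interval of Rrm2 (5.61 to 6.32 on the log2 scale) did not meet that of Rrm1 (3.24 to 3.81).

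Dut, which removes dUTP so that uracil stays out of DNA, read 12.87, 13.03 and 13.00 in fetal and 9.57, 9.34 and 9.05 in adult basal arrays and was 12.5-fold higher (limma, Holm-adjusted p = 0.0007). Tyms, thymidylate synthase, makes dTMP from dUMP and stood apart from the rest. Its fetal arrays read 12.13, 12.03 and 12.05 and its adult basal arrays 11.91, 12.11 and 11.88. Adult basal replicate 2 lay between the fetal arrays, and the log2 difference of 0.10 had a 95% interval from -0.15 to 0.36, so that a 2-fold difference in either direction was outside it for this probe. The kinase that recovers thymidine and the synthase that makes thymidylate anew thus stood near the opposite ends of the 46 genes. The array has 1 matched probe for Tyms, and no further probe was at hand to compare with it.

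Both genes of chromatin assembly factor 1, which places histones on copied DNA, passed the threshold. Chaf1a measured 11.00, 10.83 and 11.42 in fetal arrays and 6.66, 6.33 and 6.42 in adult basal arrays, a log2 difference of 4.61 ± 0.18, or 24.5-fold (limma, Holm-adjusted p = 0.00044). Chaf1b was 4.94-fold higher by its main probe (fetal 13.22, 13.21 and 13.44, adult basal 10.99, 11.07 and 10.89, limma, Holm-adjusted p = 0.0024).

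There were 5 genes with 2 probes, and the brighter probe, averaged over all arrays, was taken as the main one. Every second probe was also higher in fetal cells, but the size of the difference depended on the probe. For Rfc4 the main probe (A_55_P2159807) gave a log2 difference of 0.74 and the dimmer probe (A_55_P2159801) one of 3.51 ± 0.39. The dimmer probe read 10.42, 10.34 and 10.64 in fetal arrays and 7.37, 5.96 and 7.53 in adult basal arrays, with adult basal replicate 2 lowest, and it did not pass either (limma, Holm-adjusted p = 0.58). Chaf1b gave 2.31 by its main and 3.49 by its dimmer probe, both past the threshold. For Cdc6 the fetal signal at the second probe was at least 13.1-fold higher, but the adult values of 2.76, 1.99 and 4.20, all near background, were widely spread and the difference did not pass (limma, Holm-adjusted p = 0.45). The probes of Cdc7 differed little, at 1.51 and 1.25, and neither passed. With the mean of the probes of each gene in place of the main probe, the log2 difference of Rfc4 was 2.13.

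**Figure D3:**
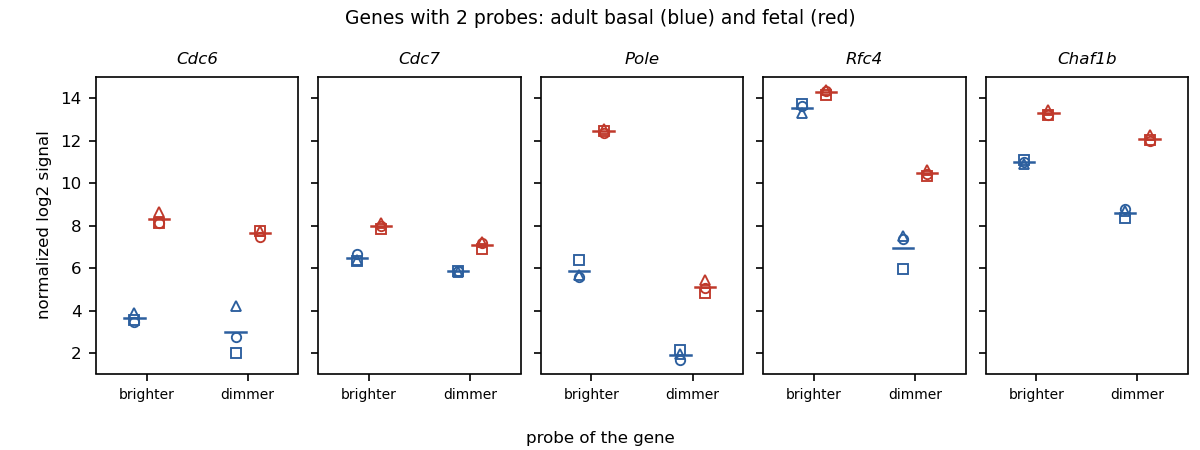
Normalized log2 signal (vertical axis) at the brighter and the dimmer probe of the 5 genes with 2 probes, on the adult basal (blue) and fetal (red) arrays, with symbols for replicates 1 (circle), 2 (square) and 3 (triangle) and bars at the means. Fetal signal is higher at every probe, and the gap changes between the probes of Rfc4 (0.74 and 3.51). The adult values at the dimmer probes of Cdc6 and Pole and at the brighter probe of Cdc6 were not well above background, so the gaps there are bounds.

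The groups of genes were therefore alike in direction and unlike in size. By median log2 difference of the main probes the order was nucleotide synthesis (3.65), chromatin assembly (3.46), the MCM helicase (3.12), polymerases and primase (2.97), licensing and Okazaki fragment maturation (both 2.32), helicase activation (2.06), the clamp and its loader (1.68) and single-strand binding (1.52). This order changed in some alternatives. With the mean of the probes of a gene, chromatin assembly (3.75) stood above nucleotide synthesis (3.65). With normexp background correction the MCM helicase (3.19) stood above chromatin assembly (3.08). Within slide 2, helicase activation (2.51) stood above licensing (2.43) and Okazaki fragment maturation (2.31). The ranges overlapped widely. Licensing ran from 0.99 to 4.48 beside Cdc6, for which only a bound is given, polymerases from 0.54 to 6.57, the clamp and its loader from 0.74 to 3.51 and nucleotide synthesis from 0.10 to 6.14. Groups held between 2 and 8 genes, and no difference between groups was tested. The genes that missed the threshold were spread over 7 of the 9 groups.

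The replicates were close. The range over the 3 arrays of a population had a median of 0.23 log2 units over the 46 genes in fetal cells (0.04 to 0.60) and of 0.33 in adult basal cells (0.12 to 2.20), and the median SD was 0.12 and 0.17, near the 0.12 and 0.18 of all tested probes. Orc2 and Gins2 were the only genes whose adult basal range exceeded 1 log2 unit at the main probe, and the dimmer probes of Cdc6 and Rfc4 exceeded it too. Fetal replicate 3 was the highest fetal array for 36 of the 46 genes, and fetal replicate 1 was the lowest for 28. In adult basal cells replicate 2 was the lowest for 25 genes and the highest for 13. The sizes of these shifts were small beside the gap between populations. Relative to the mean of the 6 arrays, the median of the 46 genes was 1.23, 1.29 and 1.40 in fetal replicates 1 to 3 and -1.22, -1.41 and -1.32 in adult basal replicates 1 to 3.

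**Figure D4:**
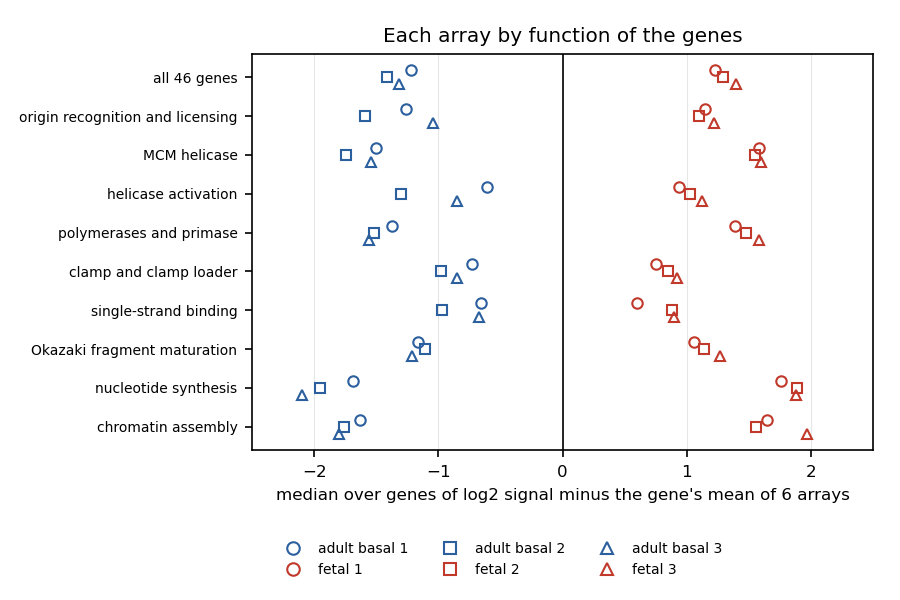
Median, over the genes of each functional group (rows), of the log2 signal minus the gene's own mean of the 6 arrays (horizontal axis), with 1 symbol per array. All fetal arrays (red) lie above 0 and all adult basal arrays (blue) below it in every group, with the widest gap for nucleotide synthesis and the narrowest for single-strand binding and the clamp and its loader.

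Arrays came from 2 slides. Fetal replicate 1 and adult basal replicates 1 and 3 were on slide 1, and fetal replicates 2 and 3 and adult basal replicate 2 on slide 2. The median log2 difference of the 46 genes was 2.40 within slide 1, where all 46 were higher in fetal cells, and 2.79 within slide 2, where 45 were. Tyms was the gene that was lower there, by -0.08. The largest changes between slides were those of Orc2 (0.10 and 2.52) and Gins2 (1.74 and 3.71), whose low adult array was the adult array on slide 2. With slide as a block in limma, 27 of the 46 genes passed the threshold, all with higher fetal signal, and Cdt1, Pold1, Pcna, Rfc1 and Rfc3 no longer did. In the same fit 1541 of 20448 probes passed, 801 of them (3.92%) with higher fetal signal.

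Beyond the 46 genes, 40 other replication factors gave a median log2 difference of 1.01. Of these, 15 passed the threshold with higher fetal signal and 0 with higher adult basal signal (0 also with Benjamini-Hochberg adjustment). Chtf18, Clspn, Dscc1, Dna2 and Dtl were among the 15 but were kept by the signal filter through their fetal signal alone. Of the 34 factors that passed the filter in both populations, 10 passed the threshold. Uhrf1, which brings maintenance methylation to copied DNA, read 14.31, 14.38 and 14.44 in fetal against 6.93, 7.58 and 7.06 in adult basal arrays, a 146-fold difference (limma, Holm-adjusted p = 1.8e-05). Dtl, a substrate receptor through which Cdt1 is degraded in S phase, was 93.5-fold higher, and Chtf18, the large subunit of an alternative clamp loader, 53.2-fold higher (limma, Holm-adjusted p = 3.2e-05 and 7.7e-06). At the other end were Mtbp, a partner of the firing factor treslin, with a log2 difference of -0.25, Pold4, the smallest polymerase delta subunit, with -0.21, and Recql4, a helicase used in initiation, with -0.05. None of these 3 passed.

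Of 20 other nucleotide enzymes 19 had a probe, and 3 of them passed, all with higher fetal signal, with a median log2 difference of 0.96. Fewer passed whichever array was left out, and also with the replicate block. Dtymk, which phosphorylates the dTMP made by either Tk1 or Tyms, was 6.0-fold higher, and Umps of pyrimidine synthesis 4.75-fold higher (limma, Holm-adjusted p = 0.0035 and 0.015). The mitochondrial serine enzyme Shmt2 had the lowest log2 difference, -1.81, followed by Rrm2b, the p53-regulated reductase subunit, with -0.51 and Cad of pyrimidine synthesis with -0.26, and none of these passed. With Benjamini-Hochberg adjustment, 9 enzymes passed with higher fetal signal and 1, Shmt2, with higher adult basal signal. The reductase subunit that serves S phase and the one that serves resting cells thus had differences of opposite sign, of which only the first passed.

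The genes that control S-phase entry, the E2F and RB families and their partners, had a median log2 difference of 0.82 over 17 genes and of 0.58 over the 16 that passed the signal filter, and 4 passed the threshold, all with higher fetal signal. E2f2, an activating E2F, read 11.78, 11.94 and 11.83 in fetal against 7.55, 7.78 and 7.28 in adult basal arrays and was 19.9-fold higher (limma, Holm-adjusted p = 0.00016). E2f8, a repressing E2F that is itself made in S phase, was 15.7-fold higher, and Rbl1, the p107 pocket protein, 8.01-fold higher (limma, Holm-adjusted p = 0.0028 and 0.00022). The values of its relatives had the other sign. Rbl2 (p130) had a log2 difference of -0.52, Rb1 of -0.49 and the repressor E2f6 of -0.14, and none passed.

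**Figure D5:**
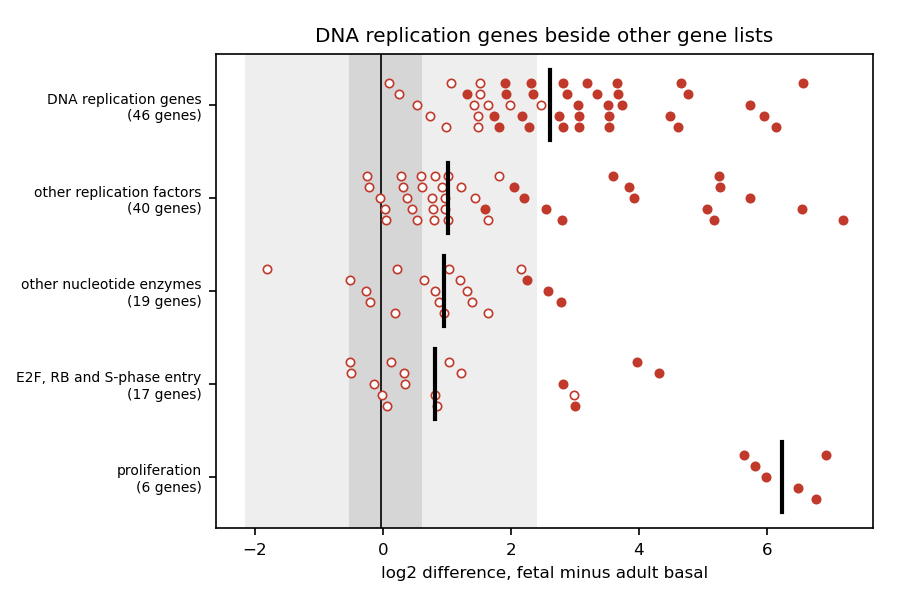
Log2 difference, fetal minus adult basal (horizontal axis), of the main probe of each gene in 5 lists, with filled points for genes past the threshold, open points for genes that did not pass or were not tested, and a black bar at the median of each list. The dark and light bands hold the middle 50% (-0.52 to 0.59) and 90% (-2.14 to 2.39) of all tested probes around their median (thin line, -0.03), and the median of the DNA replication genes (2.61) lies right of both bands.

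The labels of the sorted cells were checked against marker genes. All 10 basal markers were well above background in both populations, and 8 of them were past the threshold with higher adult basal signal (median log2 difference -4.01), among them Krt5, Acta2 and Myh11. Myh11 was kept by the signal filter through its adult basal signal alone. Trp63 did not pass by its main probe (log2 difference -0.08), but its dimmer probe passed with -3.06. The summed linear signal of the basal markers, in which Acta2 was the brightest gene, was 94881, 86386 and 76454 in fetal and 1228831, 1190987 and 1193172 in adult basal replicates 1 to 3. Of 12 luminal markers 5 passed with higher fetal signal, namely Elf5, Kit, Pgr, Foxa1 and Csn3, and Areg (log2 difference 2.30) did with Benjamini-Hochberg adjustment alone. Elf5 and Csn3 were kept by the signal filter through their fetal signal alone, whereas Kit, Pgr and Foxa1 passed it in both populations. By their main probes Krt19 (log2 difference -1.22), Esr1 (-1.06, not tested) and Prlr (-0.35) had lower fetal signal, and of these Krt19 passed with Benjamini-Hochberg adjustment. The probes of Prlr disagreed, since its dimmer probe passed with a log2 difference of 1.85. A dimmer probe of Esr1 was tested and passed with Benjamini-Hochberg adjustment alone, with a log2 difference of -3.58. That probe was kept by the signal filter through its adult basal signal alone. The summed luminal signal, of which Krt18 was the brightest, was 194570, 200493 and 156577 in fetal and 127354, 121395 and 121206 in adult basal arrays, and Csn3 did not rise well above background in the adult arrays. All 9 fibroblast markers had lower mean fetal signal, although Col1a1 differed by -0.01 only. Of these Pdgfrb and Dcn passed the threshold and Thy1 and Lum passed with Benjamini-Hochberg adjustment alone, with sums of 6265, 6445 and 7913 against 18015, 22094 and 28705, Col1a2 being the brightest and Dpt never well above background in fetal arrays. Pdgfrb was kept by the signal filter through its adult basal signal alone, whereas Dcn passed it in both populations.

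None of 6 leukocyte and 5 endothelial markers passed the threshold with Holm adjustment, and the main probes of all 11 had lower mean fetal signal. Lyz2 (log2 difference -1.76), Cdh5 (-2.70) and Cldn5 (-1.40) passed with Benjamini-Hochberg adjustment, as did the dimmer probe of Adgre1, which was never well above background in fetal arrays and at least 9.8-fold higher in adult basal arrays. Lyz2, Cdh5 and this Adgre1 probe were kept by the signal filter through their adult basal signal alone. The leukocyte sums were 16177, 12412 and 14221 in fetal and 13820, 15479 and 15808 in adult basal arrays, with Csf1r the brightest. Endothelial sums were 12262, 10818 and 12582 against 12830, 13774 and 11192, with Kdr the brightest and Tek never well above background in fetal arrays. Among 5 erythroid markers none passed the threshold and Hbb-bt passed with Benjamini-Hochberg adjustment alone, with higher fetal signal and sums of 636, 1773 and 1542 against 476, 1016 and 482, Hba-a1 the brightest, and Hbb-bt and Hbb-bs never well above background in adult arrays. All 3 epidermal markers had higher fetal signal. Krt10, the brightest, passed the threshold and Krt1 passed with Benjamini-Hochberg adjustment alone, with sums of 2087, 1721 and 1613 against 709, 732 and 735. Krt1 and, among the erythroid markers, Hbb-bt were kept by the signal filter through their fetal signal alone. The summed signals of the basal, luminal, fibroblast and epidermal markers did not overlap between the populations, whereas those of the leukocyte, endothelial and erythroid markers did. A different mix of cells and a different expression per cell cannot be told apart here, and the part of either in the differences of the replication genes was not tested.

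How far the individual calls held was checked under 17 alternatives with a test. Of the 32 genes past the threshold, 22 passed under every alternative that could be run for them, and 23 passed whichever of the 6 arrays was left out. Orc6, Cdt1, Mcm2, Pola2, Pold1, Pcna, Rfc1, Rfc3 and Lig1 lost their call when at least 1 array was left out. Of the 14 genes that did not pass, 9 passed under at least 1 alternative and 5 (Orc2, Gins3, Pold2, Rfc4 and Tyms) under none. In every alternative, within each slide included, 45 of the 46 genes had higher fetal signal.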

How the data were processed

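RNA of 3 fetal and 3 adult basal replicates was hybridized to 1 array each. The authors processed the scanned arrays with Feature Extraction 11.0.1.1. The deposited processed spot intensity is linear, background-subtracted and not normalized between arrays. The deposited log2 table holds the values the authors quantile normalized, and each column followed its own array (correlations of 0.971 to 0.996). Outlier and background flags deposited beside the intensity were used as given. The labels name the Low Input Quick Amp kit, whereas the methods name its whole-transcript exon version.

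Control and outlier spots (104 to 326 per array) were left out, log2 intensity was averaged per probe, and the 6 arrays were quantile normalized in limma 3.58.1 (R 4.3.3). Accessions matched 27235 of 55681 probes to 20660 genes of a RefSeq table of GRCm38.p6. Probes under the boundary between the lower clusters of a k-means clustering (3 clusters, 100 starts, seed 1) in both populations were dropped, and the remaining 20448 were fitted with lmFit and eBayes, with Holm's adjustment. Where no array of a population was well above background, a bound is given, namely the mean of the brighter population against the lowest signal well above background, or the probe's own if higher. Marker sums are of linear signals of main probes. The share of probes well above background ran from 76.4% to 83.3%, saturation was absent, and 3 arrays per population limit the precision. The fit was tested on simulated data. Tables were made in Python 3.11.15 (pandas 2.3.3, numpy 2.4.6, matplotlib 3.10.9).

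The members, lists and tests were chosen with earlier results of these data known. Genes were named by a rule, namely all members past the threshold, the largest and smallest difference of each group, members whose probes differ, and the 3 largest and 3 smallest of each other list. Values of 2 genes of the other lists and markers are not reported here. Gins4, Cdc45, Cdc7, Rfc2, Rpa1, Gins2, Clspn, Dscc1 and Dna2 were added after their values were seen. The same holds for the markers named. The alternatives tried were 75th percentile scaling, the deposited log2 values, normexp background correction (offset 50), no filter, a filter requiring signal well above background, all probes, Benjamini-Hochberg adjustment, eBayes with trend and robust estimation, the mean of a gene's probes, replicate number or slide as a block, within-slide differences and each array left out.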

Additional observations from a re-analysis of the deposited data

How the results depend on the processing

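The number of the 46 genes past the threshold stayed between 23 and 41 under the alternatives, and their direction did not change except for Tyms within slide 2. The count over all probes was 2270 and became 1182 without the low-signal filter, 6133 with Benjamini-Hochberg adjustment and between 945 and 1981 with 1 array left out. Correlations of deviations from the population means were -0.032, 0.093 and 0.049 for same-numbered arrays and ran from -0.13 to 0.12 for the others. With so few arrays these values cannot settle whether the replicate numbers pair the arrays. With the replicate block 1302 probes passed, 23 of the 46 genes, 1 of the clamp and loader genes, 1 of the Okazaki genes, 1 of the chromatin assembly genes and 1 of the other nucleotide enzymes. With 1 array left out, the range was 3 to 5 licensing genes, 1 to 3 clamp genes, 1 to 2 Okazaki genes, 8 to 12 other replication factors, 0 to 2 other nucleotide enzymes and 2 to 6 proliferation genes. Without the filter, 3 licensing, 1 clamp, 1 Okazaki and 3 proliferation genes passed, and with the slide block 1 clamp gene. With Benjamini-Hochberg adjustment 7 helicase activation, 3 single-strand binding, 10 other nucleotide and 7 S-phase entry genes passed. Trend and robust estimation gave 3 single-strand binding, 6 other nucleotide and 3 proliferation genes, and normexp gave 3 single-strand binding and 5 other nucleotide genes. The median log2 difference of the 46 genes was 2.26 with normexp, 2.78 with the mean of the probes, 2.71 with the slide block, 2.40 and 2.79 within slides 1 and 2 and 2.52 to 2.81 with 1 array left out, the highest of these without adult basal replicate 1. With normexp the medians were 2.62 for polymerases, 3.08 for chromatin assembly, 1.14 for other replication factors and 4.95 for proliferation. With the mean of the probes they were 2.02 for the clamp group, 3.75 for chromatin assembly, 1.33 for other replication factors and 1.12 for S-phase entry. Within slide 1 they were 1.62 for helicase activation, 2.86 for polymerases and 1.51 for the clamp group, and within slide 2 they were 3.29 for the MCM helicase, 2.51 for helicase activation, 1.87 for the clamp group, 1.82 for single-strand binding, 1.24 for other replication factors and 0.92 for S-phase entry. The S-phase entry median was 0.58 over 16 genes and 0.82 over 17 without the filter or with the filter on background, where 1 more gene was tested. Other replication factors ranged from 0.99 to 1.12 with 1 array left out. Recql4 (-0.05) ran from -0.18 to 0.06 with 1 array left out, and turned to 0.05 without adult basal replicate 2 and to 0.06 without fetal replicate 2. With normexp the differences of 6 members (Cdc6, Chaf1a, Dbf4, Gmnn, Pola2 and Pole) fell by more than 1.5-fold, and all 6 still passed. The cause of the other changes was not tested. The number of arrays and the Holm adjustment limit what could pass, and differences of probes near background are bounds.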

Other observations

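The 6 proliferation genes, which act in mitosis or mark cycling cells rather than copy DNA, had a median log2 difference of 6.23 (5.9 with Aurkb, whose adult values were not well above background, at its bound), and all 6 passed the threshold with higher fetal signal. Bub1 and Aurkb were kept by the signal filter through their fetal signal alone, and the 4 that passed it in both populations all passed the threshold. Mki67 and Bub1 only just passed (limma, Holm-adjusted p = 0.044 and 0.045). Fewer of these genes passed without the filter, with trend and robust estimation, or with some of the arrays left out, as given above. Cdk1, the mitotic kinase, read 12.88, 13.03 and 13.02 in fetal and 5.43, 7.05 and 6.15 in adult basal replicates 1 to 3 at its main probe, a 109-fold difference (limma, Holm-adjusted p = 0.0047). Of its other probes, one was 72.2-fold higher in fetal cells and passed and the other was 1.94-fold higher and did not, and at both adult basal replicate 1 was the highest adult array. Mki67, which encodes the Ki-67 antigen of cycling cells, read 14.74, 14.71 and 14.53 in fetal against 7.60, 9.60 and 8.83 in adult basal arrays. Top2a, the topoisomerase that untangles copied chromosomes, read 12.00, 11.94 and 11.96 against 5.85, 7.0 and 6.14, and Ccnb1, the cyclin of Cdk1, 12.79, 12.79 and 12.96 against 6.66, 7.55 and 6.87. The checkpoint kinase gene Bub1 read 10.97, 11.05 and 11.06 against 2.80, 5.12 and 4.39, and only 2 of these adult values were well above background. At the main probes of these 5 genes adult basal replicate 1 was the lowest and replicate 2 the highest adult array. Over the 46 DNA replication genes replicate 2 was the lowest adult array for 25 and the highest for 13. Aurkb, a kinase of chromosome segregation, read 8.35, 8.56 and 8.76 in fetal arrays, at least 24.4-fold higher than in adult basal arrays (limma, Holm-adjusted p = 0.00027). The median SD of the 6 genes was 0.10 in fetal and 0.71 in adult basal arrays, against 0.12 and 0.17 for the DNA replication genes.

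Several related genes had probes whose log2 differences were far apart. These genes were chosen after their values were seen. E2f7, a repressing E2F, had a log2 difference of 0.07 at its brighter probe (A_55_P2020894) and of 6.13 at the dimmer one (A_55_P2062598). Pclaf, which binds the clamp, gave 0.92 (A_55_P2017870) and at least 62.3-fold higher fetal signal (A_66_P133404, with no adult value well above background), and Mcm8, a relative of the MCM helicase subunits, gave 0.61 (A_55_P1959258) and 3.66 (A_55_P2107065). Among the DNA replication genes the probes of Rfc4 were far apart, and for Pole the dimmer probe gave only a bound.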
